A study of Mus musculus with 12 samples.

Results

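The Egr genes (early growth response) encode 4 zinc finger transcription factors, Egr1, Egr2, Egr3 and Egr4, and Nab1 and Nab2 encode corepressors that bind Egr1, Egr2 and Egr3. These 6 genes were chosen by name, through their Ensembl identifiers, out of 41091 genes in the count tables of mouse hippocampal slices after chemical long-term potentiation (LTP). The rule uses names and no measured value, though the family was picked with earlier results of these data known. One hour after LTP induction the transcripts of Egr1, Egr2, Egr3 and Egr4 were 2.47-fold, 5.53-fold, 1.57-fold and 4.87-fold higher than in control slices. At 3 hr Egr1, Egr2 and Egr4 were still 2.404-fold, 2.64-fold and 2.33-fold higher. Neither Nab1 nor Nab2 passed the test at 1 hr or at 3 hr.

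Egr genes are immediate early genes: synaptic activity, calcium entry and cyclic AMP switch them on within minutes, without new protein synthesis, through serum response factor (SRF) with its ternary complex partners and through CREB. Their proteins bind GC-rich sites in promoters and can raise or lower transcription. Nab proteins bind Egr1, Egr2 and Egr3 through a domain that Egr4 lacks and can recruit the NuRD chromatin remodeling complex. In the hippocampus Egr1, also called Zif268, is a classical marker of LTP, Egr2 is best known as a regulator of myelination that is also induced in neurons, and Egr3 has been tied to memory.

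The study examined alternative polyadenylation after LTP induction, and its RNA-seq, used here, measured transcript abundance beside it. Hippocampal mini-slices, from which the dentate gyrus had been trimmed, came from male wild-type C57BL/6 mice aged 2 to 3 months, a strain label and age that all groups share. LTP slices were bathed for 5 min in 50 uM forskolin, which activates adenylyl cyclase and so raises cyclic AMP, and then until 10 min in forskolin with 30 mM KCl and 10 mM calcium. Control slices had 0.2% DMSO, the vehicle, for 10 min, and both were frozen 1 hr or 3 hr later. Each of the 4 groups (control 1 hr, LTP 1 hr, control 3 hr, LTP 3 hr) has 3 libraries. A replicate number stands for 1 animal whose slices were split between LTP and control at that time point. A library pooled several slices of 1 animal, and per the study's methods slices were carried forward when Arc and a short Homer1 transcript had risen in a prior PCR assay, so a rise of Arc was part of how the samples were chosen.

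Library totals ran from 37118382 to 50815001 counts. At that depth a floor of 3 counts lay between 0.0590 and 0.0808 CPM (counts scaled to a common library size), far under the level of every member. Counting error and the spread between animals were not separated. Control 1 hr replicate 2 stood apart from the other 1 hr libraries on the first principal component (-8.09 against -37.7 to -24.4). The study left it out as an outlier, and it is left out of the tests here, while its value is printed for every member. LTP 3 hr replicates 2 and 3 lay farthest apart of the 3 hr libraries on the same component, at 12.6 and 40.3. No marker of any checked cell type was at 0, and markers of dentate granule cells were present in every library, with a summed level of 162 to 293 CPM. In such bulk samples fewer cells of a type and less RNA per cell cannot be told apart.

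Egr2 (ENSMUSG00000037868.10) lies on chromosome 10 of the GRCm38 assembly from 67535475 to 67542188, plus strand, with up to 4 exons. Egr3 (ENSMUSG00000033730.3) lies on chromosome 14 from 70077203 to 70082614, plus strand, with up to 3 exons. Egr4 (ENSMUSG00000071341.3) is the shortest, from 85511121 to 85513589 on the minus strand of chromosome 6, with 2 exons. Nab1 (ENSMUSG00000002881.9) covers 52457294 to 52500679 on the minus strand of chromosome 1 with up to 9 exons, and Nab2 (ENSMUSG00000025402.7) covers 127660918 to 127668568 on the minus strand of chromosome 10 with up to 7 exons. The exons of Nab2 share 42.2% of their bases with genes of the opposite strand (Stat6, Gm16229 and Nemp1), and since it is not stated whether counting used strand, the Nab2 values may hold reads of those genes. The exons of the other 5 members share 0% with another gene.

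Promoter sequence, the 250 bases before to 50 after a start site, was read from RefSeq (GRCm38.p6) for 4 of the 6 members, in 8 windows. Short stretches are shown because they hold the binding letters of the factors that switch Egr genes on, and of Egr proteins themselves. Capitals mark the motif, and each line runs 5′ to 3′ on the strand of the gene. Egr2 held the CArG box, the site of SRF, at 2 places.
Egr2 CArG box 1, chr10:67537787-67537816, plus strand: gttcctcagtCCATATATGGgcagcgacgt
Egr2 CArG box 2, chr10:67537484-67537513, plus strand: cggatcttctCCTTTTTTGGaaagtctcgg
The first began 72 bases before the start at 67537869 and the second 72 bases before the start at 67537566. A CArG box was present in 1.63% of the 32851 promoter windows of the same length.

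The core TGACG of the cyclic AMP response element, searched on both strands with CGTCA as its reverse complement, was found in Egr2, Egr4 and Nab1. It lies within the full element TGACGTCA, which none of the 8 windows held and which 1.79% of all windows hold.
Egr2 TGACG core 1, chr10:67537748-67537772, plus strand: attggccatgTGACGgcaaaagctg
Egr2 TGACG core 2, chr10:67537804-67537828, plus strand: tgggcagcgaCGTCAcgggtattga
Egr4 TGACG core 1, chr6:85513684-85513708, minus strand: tggtcatttaCGTCAcggcgccagg
Egr4 TGACG core 2, chr6:85513752-85513776, minus strand: gcggcagcaaCGTCAcaggccgagc
Nab1 TGACG core, chr1:52500557-52500581, minus strand: ccgggatctgCGTCActcggccgcg
The core is common and was held by 20.8% of windows.

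Letters of an Egr binding site were found in the Nab1 window, on both strands. GCGTGGGCG occurred in 0.612% of all windows and GCGGGGGCG in 2.91%, both searched on either strand.
Nab1 Egr site 1, chr1:52500539-52500567, minus strand: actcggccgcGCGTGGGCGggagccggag
Nab1 Egr site 2, chr1:52500571-52500599, minus strand: gccccgcggcCGCCCACGCcgggatctgc
Nab1 Egr site 3, chr1:52500468-52500496, minus strand: gcggggcgggGCGGGGGCGgcggaggtgg
They began 109, 141 and 38 bases before the RefSeq Nab1 start at 52500448. That start and the stretches lie inside the gene as placed above, whose 5′ end on the minus strand is 52500679. The Nab2 window and the most upstream of the 5 Egr2 windows held 0 matches to any motif searched. TATAAA, present in 13.6% of all windows, was in none of the 8. The Nab2 window surrounds a start at 127666703, inside the gene as placed above, whose 5′ end on the minus strand is 127668568. Sequence around that end was not searched. A match is a description of the letters and not of a bound site.

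Egr2 had the largest estimated rise of the family at 1 hr. Its 95% interval on the log2 scale, 2.28 to 2.65, overlapped that of Egr4, 2.01 to 2.56, and the genes were not tested against each other. The level of Egr2 was 10.9, 12.3 and 11.6 CPM in control 1 hr replicates 1, 2 and 3, and 61.4, 62.7 and 60.9 CPM in the LTP 1 hr replicates. All LTP libraries lay far above all controls, and they differed among themselves by less than 2 CPM. Without control replicate 2 the means were 11.2 ± 0.520 CPM (SD, n = 2) and 61.7 ± 0.977 CPM (SD, n = 3). The rise of 2.47 on the log2 scale (SE 0.0863) had an adjusted p = 5.44e-10 by edgeR's quasi-likelihood test. Among 17736 genes tested at 1 hr it was number 30 from the largest rise.

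At 3 hr the control replicates had 10.9, 14.3 and 11.8 CPM of Egr2, and the LTP replicates 28.7, 39.2 and 28.9 CPM. The LTP libraries stayed above all controls and were all under the LTP libraries of 1 hr. Egr2 was higher by 1.40 on the log2 scale (SE 0.146, adjusted p = 0.00278, edgeR), with means of 12.3 ± 1.78 and 32.3 ± 5.99 CPM (SD, n = 3 each). The LTP effect on Egr2 was thus smaller at 3 hr than at 1 hr by -1.06 on the log2 scale (SE 0.182), and this difference, tested in 1 model of the 4 groups, passed with adjusted p = 0.0794 (edgeR). Of 18584 genes 0.0592% were called in this test, 0.0323% with a smaller and 0.0269% with a larger effect at 3 hr, and 1 of 6 members, Egr2, was among the former. The call depended on which libraries were fitted: leaving out control 1 hr replicate 1 or 3, control 3 hr replicate 2 or 3, LTP 1 hr replicate 1, 2 or 3, or LTP 3 hr replicate 1 raised the adjusted p to between 0.107 and 0.445, while the difference stayed between -1.24 and -0.96 without any single library.

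Egr4, the family member without a Nab-binding domain, had the next largest response at 1 hr. Its level was 8.40, 13.6 and 8.01 CPM in the control 1 hr replicates and 40.2, 32.9 and 45.9 CPM in the LTP 1 hr replicates. The groups did not overlap, and the control left out of the tests was the highest of the controls. Egr4 rose by 2.28 on the log2 scale (SE 0.130, adjusted p = 1.12e-07, edgeR), number 33 from the largest rise.

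At 3 hr Egr4 stood at 27.7, 29.1 and 28.9 CPM in controls and 61.3, 44.2 and 92.3 CPM in LTP slices. Every LTP library exceeded every control, but the LTP libraries spread over a range of more than 40 CPM while the controls nearly coincided. The rise was 1.22 on the log2 scale (SE 0.220, adjusted p = 0.0239, edgeR). Set against the 1 hr effect it was smaller by the same amount as for Egr2, -1.06, but with a larger SE of 0.307 and an adjusted p = 0.457 (edgeR), so it was not called. Without LTP 3 hr replicate 3, the highest library, the difference was -1.40 with adjusted p = 0.0127.

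Egr1 (ENSMUSG00000038418.7, chromosome 18 from 34859823 to 34864984, plus strand, up to 3 exons) passed the test at both times. It had 30.9, 33.1 and 27.6 CPM in the control 1 hr replicates and 78.2, 67.4 and 70.1 CPM in the LTP 1 hr replicates. Each LTP library was above each control by a wide gap. Egr1 rose by 1.31 on the log2 scale (SE 0.0895, adjusted p = 8.12e-07, edgeR), number 160 from the largest rise.

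In the 3 hr controls Egr1 was at 36.2, 40.0 and 33.7 CPM, and in the 3 hr LTP slices at 73.8, 61.3 and 126.7 CPM. The groups did not overlap, and replicate 3 was by far the highest library. LTP raised the level by 1.27 on the log2 scale (SE 0.232, adjusted p = 0.0250, edgeR). The 3 hr effect minus the 1 hr effect came to -0.03, with a 95% interval from -0.65 to 0.59 and adjusted p = 0.997 (edgeR). Differences inside that interval are compatible with the data.

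Egr3 gave the smallest response of the 4. Its level was 17.7, 22.7 and 14.7 CPM in the control 1 hr replicates and 27.5, 23.5 and 24.8 CPM in the LTP 1 hr replicates. The lowest LTP library lay just above control replicate 2 and clearly above the other controls. Egr3 rose by 0.65 on the log2 scale (SE 0.106, adjusted p = 0.00633, edgeR), number 770 from the largest rise. With control 1 hr replicate 2 included, it was 0.47 with adjusted p = 0.214, and without control replicate 3 it was 0.53 with adjusted p = 0.230. In 1 model of the 4 groups with the same controls it was 0.64, with adjusted p = 0.376, so the call was lost there too.

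At 3 hr Egr3 had 19.6, 23.5 and 23.7 CPM in controls and 28.2, 20.9 and 40.2 CPM in LTP slices. The groups overlapped, since LTP replicate 2 lay under 2 of the controls. Its effect of 0.43 on the log2 scale (95% interval -0.03 to 0.89) did not pass, with adjusted p = 0.282 (edgeR). Without LTP 3 hr replicate 2 it was 0.63 with adjusted p = 0.0225. The change from the 1 hr effect was -0.21, with an interval from -0.79 to 0.36 and adjusted p = 0.960.

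**Figure D1:**
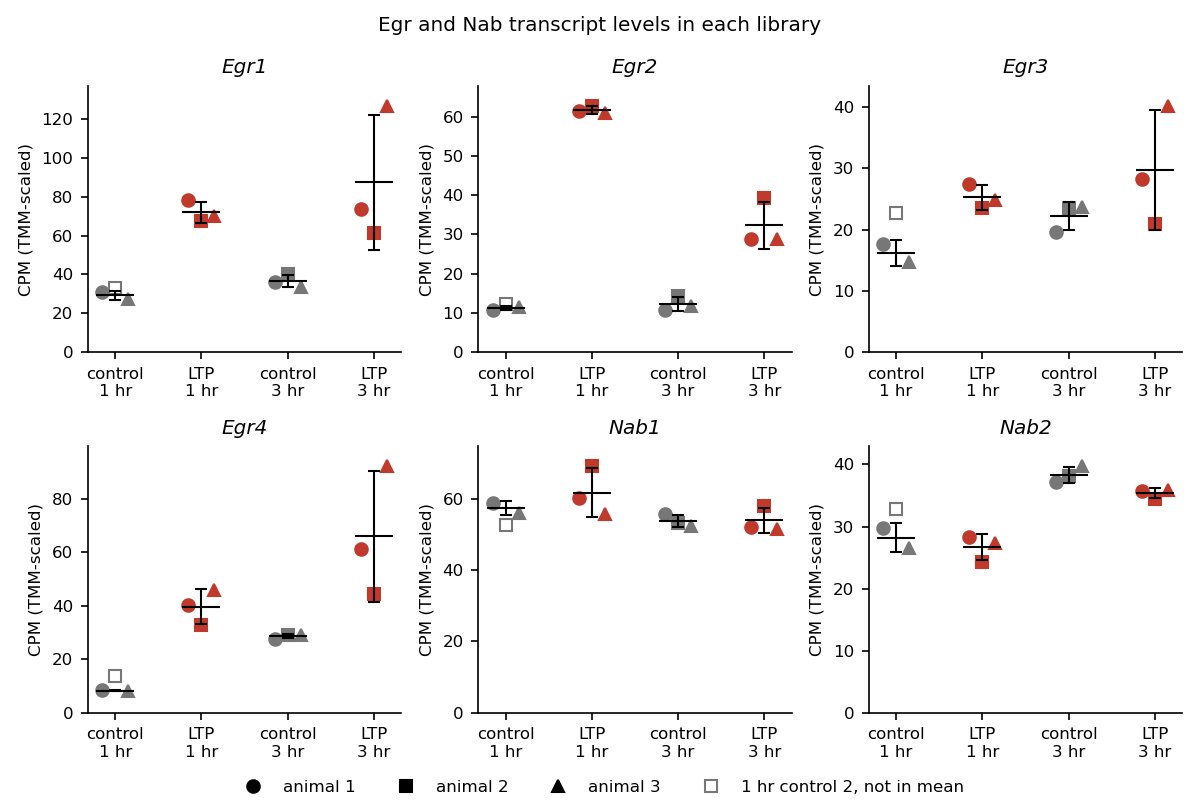
Transcript level of each gene (y axis, TMM-scaled CPM, from 0) in each library by group (x axis), with symbols for the animal, black bars for mean and SD, and an open square for control 1 hr replicate 2, which is not in the mean. Egr1, Egr2 and Egr4 show LTP libraries above all controls at both times, LTP 3 hr replicate 3 is highest for Egr1 (126.7 CPM), Egr3 and Egr4, and LTP and control libraries of a time point lie close together in the Nab panels, with overlap except for Nab2 at 3 hr, where LTP libraries are slightly lower.

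Nab1, which encodes a corepressor that damps transcription by Egr proteins, had 58.8, 52.7 and 56.2 CPM in the control 1 hr replicates and 60.2, 69.3 and 55.8 CPM in the LTP 1 hr replicates. LTP replicate 2 was the highest and the groups overlapped. LTP over control gave 0.11 on the log2 scale (95% interval -0.08 to 0.31, adjusted p = 0.920, edgeR). At 3 hr it was 55.8, 53.3 and 52.4 CPM in controls and 52.3, 58.1 and 51.6 CPM in LTP slices, again with overlap. This gave 0.02 on the log2 scale (interval -0.14 to 0.17, adjusted p = 0.912).

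Nab2, the second corepressor, is itself described as a gene that Egr1 can switch on. It was at 29.8, 32.8 and 26.6 CPM in the control 1 hr replicates and 28.4, 24.3 and 27.4 CPM in the LTP 1 hr replicates. The groups overlapped, and the log2 fold change was -0.07 (interval -0.27 to 0.13, adjusted p = 0.960, edgeR). At 3 hr Nab2 had 37.2, 38.1 and 39.8 CPM in controls and 35.7, 34.4 and 35.9 CPM in LTP slices. Here all LTP libraries lay under all controls, but by little, and the log2 fold change of -0.11 (interval -0.26 to 0.05) did not pass, with adjusted p = 0.408. Groups that do not overlap in this direction were found for 13.6% of genes at 3 hr. Stat6 and Nemp1, which share exonic bases with Nab2, did not pass at either time, and Gm16229 was at most at 0.0792 CPM in any library.

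Counted together, 4 of 6 members were called higher at 1 hr and 0 lower, where 0.778% of 17736 genes tested were called higher and 0.0113% lower. At 3 hr it was 3 of 6 higher and 0 lower, where 5.07% of 17508 genes were called higher and 1.53% lower. By non-overlap of the fitted libraries, without control 1 hr replicate 2, LTP was higher for 4 members at 1 hr, beside 10.7% of genes. At 3 hr it was higher for 3, beside 12.6%. All 6 members passed the filter on low counts at both times. The call at 3 hr depended on the number of controls. Leaving out control 3 hr replicate 1, 2 or 3 gave adjusted p between 0.103 and 0.116 for Egr1 and Egr4, so that Egr2 alone was called, while the log2 fold changes of both stayed between 1.196 and 1.33. Without LTP 3 hr replicate 3 both effects were 0.89 and still passed.

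**Figure D2:**
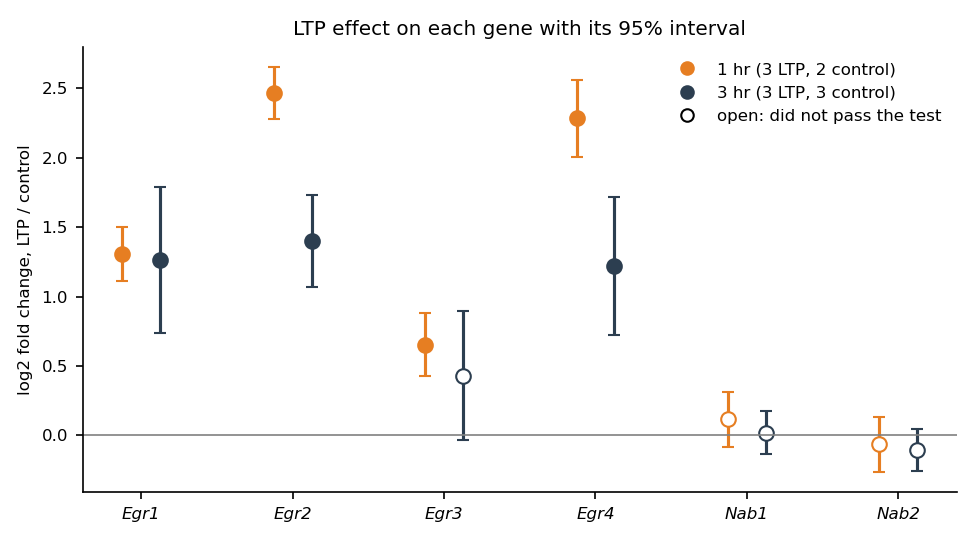
Log2 fold change of LTP over control (y axis) for each gene (x axis) at 1 hr and 3 hr, as points with 95% intervals from edgeR, filled where the gene passed the test. Egr2 and Egr4 stand above 2 at 1 hr and between 1.22 and 1.40 at 3 hr, Egr1 is near 1.3 at both times, and the Nab intervals all hold 0.

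Because LTP and control slices came from the same animals, the ratio can be formed within each one. Among the 4 Egr genes Egr2 was the most even, with log2 ratios from 2.34 to 2.49 at 1 hr and from 1.28 to 1.45 at 3 hr. Egr4 ranged from 1.27 to 2.50 at 1 hr, where the lowest ratio used control replicate 2, and from 0.60 to 1.67 at 3 hr. Egr1 ranged from 1.02 to 1.34 and from 0.61 to 1.91. These 3 genes were higher in LTP slices in 3 of 3 animals at each time, and at 3 hr the spread among animals was widest for Egr1 and Egr4.

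The ratio of Egr3 was 0.05, 0.63 and 0.75 in rising order at 1 hr, and -0.17, 0.52 and 0.76 at 3 hr, so 2 of 3 animals were higher at 3 hr. Nab1 was higher in 2 of 3 animals at 1 hr and in 1 of 3 at 3 hr. Nab2 was higher in 1 of 3 at 1 hr and in 0 of 3 at 3 hr, with ratios from -0.15 to -0.06 at the later time.

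**Figure D3:**
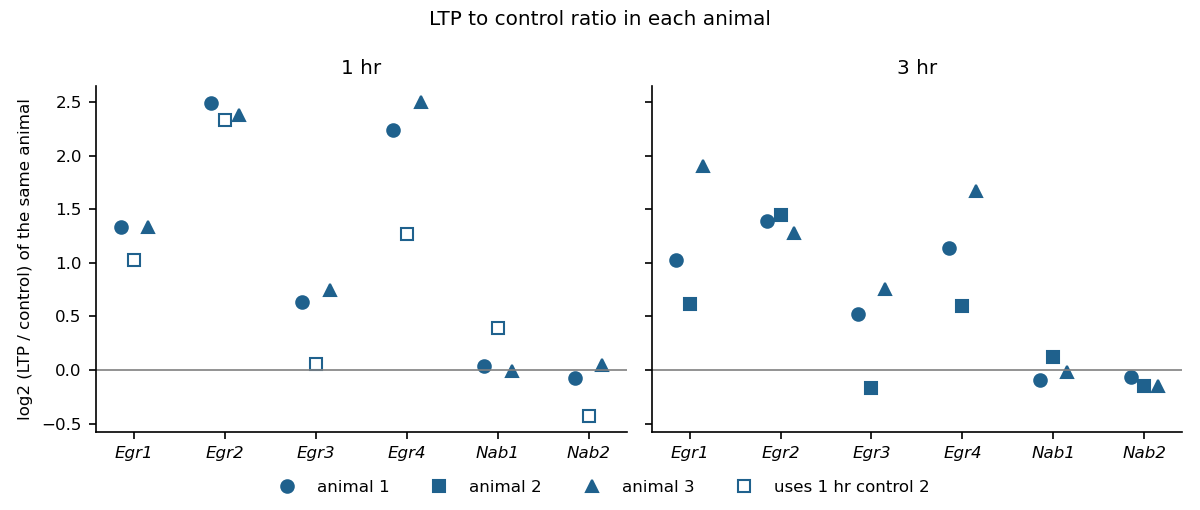
Log2 ratio of LTP to control CPM (y axis) within each animal for each gene (x axis), at 1 hr (left) and 3 hr (right), with an open square where the ratio uses control 1 hr replicate 2. At 3 hr the animals of Egr2 lie together between 1.28 and 1.45, while Egr1, Egr3 and Egr4 are lowest in animal 2 and highest in animal 3.

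Within the LTP 3 hr group the genes did not order the animals alike. Egr1, Egr3 and Egr4 were highest in replicate 3 and lowest in replicate 2, and Egr2 was highest in replicate 2. The summed level of 4 excitatory neuron markers (Slc17a7, Camk2a, Neurod6 and Neurod2) had the same order as the first 3 genes, at 3187, 2486 and 3877 CPM in replicates 1, 2 and 3. In 3 hr controls that sum ran from 2834 to 2935 CPM. None of these 4 markers passed the test at 3 hr (edgeR, 0 at an unadjusted p under 0.05), and the largest value was that of Camk2a (log2 fold change 0.23, adjusted p = 0.430). Their part in the 3 hr values of Egr1, Egr3 and Egr4 was not tested.

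At 1 hr, 1 of 5 mural cell markers, Myh11, was called lower in LTP slices (log2 fold change -0.68, adjusted p = 0.0465, edgeR). The summed mural markers were at 157 to 161 CPM in the fitted controls and 134 to 148 CPM in LTP slices, and summed endothelial markers at 93.0 to 102 CPM and 79.6 to 82.7 CPM. All 5 mural and all 5 endothelial markers had values below 0, with 2 and 3 at an unadjusted p under 0.05, and 0 endothelial markers passed. The 4 oligodendrocyte markers Mbp, Mog, Mag and Mobp all had values above 0, from 0.17 (Mog) to 0.23 (Mbp) on the log2 scale. By edgeR 0 of them passed, though 2 had an unadjusted p under 0.05. Their sum was 4868 and 3732 CPM in the fitted controls and from 4736 to 5296 CPM in LTP slices. Of 6 interneuron markers 0 passed, and 2 had an unadjusted p under 0.05 (Gad2 at 0.20 and Slc32a1 at 0.20). Among the same 4 excitatory neuron markers and the markers of CA1, CA3 and dentate granule cells, astrocytes and microglia, 0 were called and 0 had an unadjusted p under 0.05. The part of these cell types in the 1 hr values was not tested.

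Levels of different genes can be set side by side only per length, here as CPM per kb of all exons of a gene. In the fitted 1 hr controls Egr1 was highest of the 4 Egr genes at 6.53 ± 0.516 CPM per kb (SD, n = 2), and Egr4, Egr3 and Egr2 followed close together at 3.82 ± 0.128, 3.68 ± 0.471 and 3.30 ± 0.153. In LTP 1 hr slices Egr4, Egr2 and Egr1 were at 18.5 ± 3.04, 18.1 ± 0.288 and 16.0 ± 1.25 CPM per kb (SD, n = 3), and Egr3 was lower at 5.74 ± 0.458. Every LTP 1 hr library had more Egr2 than any had Egr1 on this scale, from 17.9 to 18.5 against 15.0 to 17.4 CPM per kb, while the SD of Egr4 spanned both means. Nab1 was at 14.0 ± 0.460 and Nab2 at 9.58 ± 0.782 CPM per kb in the same controls, so both corepressors were above every Egr gene in 1 hr controls and Nab2, at 9.08 ± 0.717 in LTP 1 hr slices, was below 3 of the 4. In 3 hr controls Egr4 (13.3 ± 0.358), Nab1 (13.1 ± 0.422) and Nab2 (13.04 ± 0.439) lay close together (SD, n = 3). The order of near values depends on the length used. Per kb of the longest transcript, Egr2 was at 20.5 to 21.2 in LTP 1 hr slices and Egr4 at 15.3 to 21.4, and in 3 hr controls Nab2, at 14.4 to 15.4, was above Egr4, at 12.9 to 13.5. The study describes its expression values as from coding regions, and lengths of coding sequence were not used here.

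The summed level of Egr1 to Egr4 was 17.3 ± 0.961 CPM per kb in fitted 1 hr controls (n = 2) and 58.4 ± 3.66 in LTP 1 hr slices (SD, n = 3). At 3 hr it was 30.2 ± 1.73 and 66.4 ± 19.99 CPM per kb. The makeup of this sum shifted too. Egr1 made up 37.6% ± 0.889 of it in the 1 hr controls and 27.5% ± 1.54 in LTP 1 hr slices, while Egr2 went from 19.1% ± 1.94 to 31.2% ± 2.53. At 3 hr Egr4 was the largest share in controls and LTP slices alike, at 44.2% ± 1.60 and 45.6% ± 4.21. Egr3 held 21.2% ± 1.54 and 16.7% ± 1.25 of the control sums and 9.83% ± 0.511 and 10.1% ± 0.669 of the LTP sums at 1 hr and 3 hr. Per length of the longest transcript, Egr1 had 35.8% and 26.0% of the sum at 1 hr in controls and LTP slices, and Egr2 20.8% and 33.8%. These shares were not tested.

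**Figure D4:**
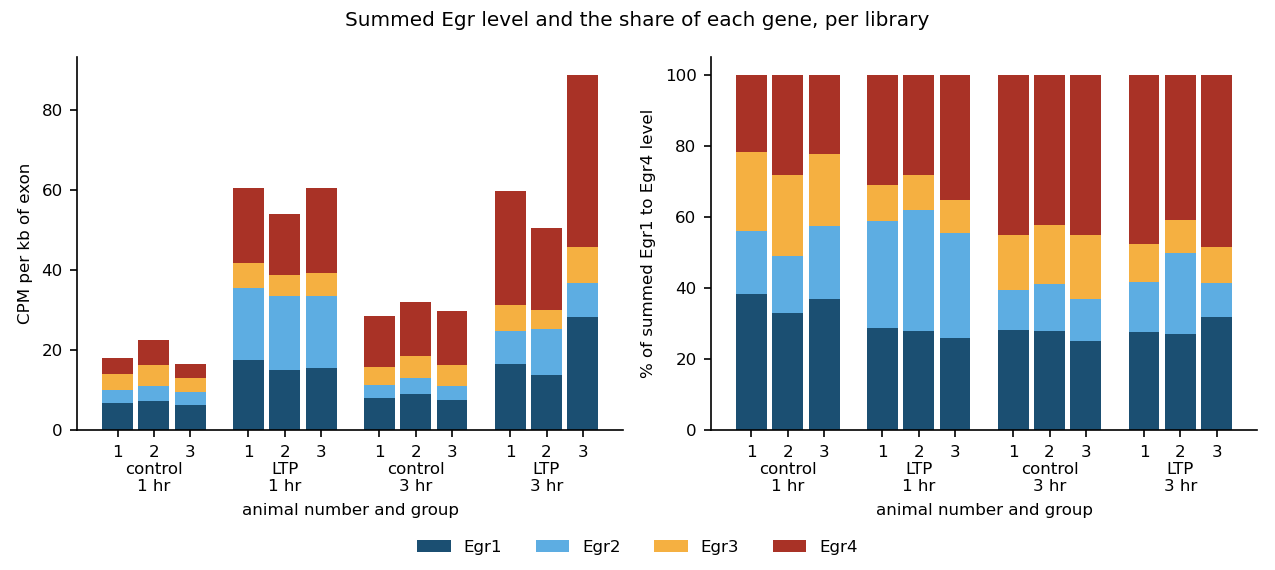
Left, summed level of Egr1 to Egr4 (y axis, CPM per kb of exon) in each library, stacked by gene, and right, the share of each gene in that sum (y axis, percent), with animals and groups on the x axis. The sum is highest in LTP 3 hr replicate 3, at 88.9 CPM per kb, and the Egr4 share is larger in every 3 hr library than in every 1 hr library.

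The levels also differed between time points without LTP. Egr4 was 3.41-fold higher in 3 hr than in 1 hr controls (log2 fold change 1.77, SE 0.245, adjusted p = 0.000242, edgeR), with no overlap between 8.01 to 13.6 CPM and 27.7 to 29.1 CPM. Nab2 was 1.33-fold higher (0.42, SE 0.0850, adjusted p = 0.00276). Egr3 (0.43, adjusted p = 0.122), Egr1 (0.29, adjusted p = 0.336), Egr2 (0.11, adjusted p = 0.600) and Nab1 (-0.12, adjusted p = 0.311) did not pass. The 2 of 6 called members stand beside 32.8% of all genes called between these controls, 16.1% higher and 16.8% lower, so a call was common in this comparison.

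The same held between LTP slices, where 35.9% of genes were called, 18.6% higher and 17.3% lower at 3 hr. Egr2 was lower at 3 hr (log2 fold change -0.95, SE 0.116, adjusted p = 7.82e-05, edgeR), Egr4 higher (0.71, SE 0.193, adjusted p = 0.0110) and Nab2 higher (0.38, SE 0.0757, adjusted p = 0.00166). Nab1 had adjusted p = 0.0490 but differed by less than 1.2-fold (-0.21) and was not called, and Egr1 (0.26) and Egr3 (0.22) did not pass, with adjusted p = 0.303 and 0.360. The labels do not state whether the time points shared animals, so time and animal cannot be told apart here. Microglia markers summed to 156 to 157 CPM in the fitted 1 hr controls and 99.6 to 112 CPM in the 3 hr controls, with 4 of 5 called lower. In the same comparison 3 of 5 mural markers were called lower (Myh11 at -1.05) and 3 of 5 endothelial markers (Tek at -0.92), and Neurod6 of the excitatory neuron markers was lower (-1.10). Called higher were 2 of the 4 oligodendrocyte markers (Mag at 0.63) and 2 of 4 CA1 pyramidal markers (Pou3f1 at 0.54). CA3, interneuron, dentate granule cell and astrocyte lists had 1 or 2 calls each. The part of these cell types in the time difference was not tested.

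Next, the regulators and targets of the family were examined from lists of known members. Of 16 regulators (SRF, its ternary complex partners, the MAP kinases and CREB), 0 were called at 1 hr or at 3 hr by edgeR, where 0.789% and 6.60% of all genes were called. At an unadjusted p under 0.05 there were 2 and 3. The highest was Srf itself at 1 hr (log2 fold change 0.21, adjusted p = 0.731) and Mrtfa, a coactivator of SRF, at 3 hr (0.39, adjusted p = 0.158). The lowest was Rps6ka4 at 1 hr (-0.30, adjusted p = 0.492) and Rps6ka1 at 3 hr (-0.22, adjusted p = 0.288), both kinases downstream of MAP kinase signaling. Rps6ka3 had an adjusted p = 0.0977 at 3 hr but differed by less than 1.2-fold. The median of the list was 0.04 at 1 hr and 0.01 at 3 hr, beside medians of -0.00103 and -0.00248 over all genes.

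The 13 NuRD subunits, the chromatin complex that Nab proteins can recruit, gave 0 calls at either time, and 0 at an unadjusted p under 0.05, with medians of -0.00288 and -0.04. The lowest and highest at 3 hr were Mbd3 (-0.14) and Gatad2b (0.33, adjusted p = 0.335).

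Of 23 genes described as Egr targets, 21 could be tested at 1 hr and 22 at 3 hr. At 1 hr 2 were called higher, Arc and Ptgs2, and at 3 hr 3 were higher, Arc, Ptgs2 and Syn1, and 1 was lower, Gabra4. That is 2 of 21 genes beside 0.789% of all genes at 1 hr, and 4 of 22 beside 6.60% at 3 hr, and at an unadjusted p under 0.05 there were 2 and 6. The medians of the list were 0.02 and 0.03.

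Arc, which encodes a protein of dendrites that moves glutamate receptors from the synapse, had 151, 221 and 131 CPM in the control 1 hr replicates and 592, 538 and 533 CPM in LTP slices. At 3 hr it had 207, 219 and 212 CPM in controls and 504, 511 and 541 CPM in LTP slices. The groups were well apart at both times, with log2 fold changes of 1.99 (SE 0.0839, adjusted p = 3.57e-09) and 1.30 (SE 0.0594, adjusted p = 3.21e-05, edgeR). Since slices were chosen for a rise of Arc, this is not independent evidence of its direction. Its LTP effect was smaller at 3 hr by -0.68 (SE 0.102, adjusted p = 0.0310).

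Ptgs2, the inducible cyclooxygenase, was at 161, 154 and 163 CPM in control 1 hr slices and 302, 375 and 311 CPM in LTP 1 hr slices. It rose by 1.03 on the log2 scale at 1 hr (SE 0.0903, adjusted p = 1.29e-05) and by 0.64 at 3 hr (SE 0.0703, adjusted p = 0.00361, edgeR). All LTP libraries were above all controls at both times.

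Syn1, a synaptic vesicle protein, was between 93.0 and 96.9 CPM in 3 hr controls and at 126, 108 and 172 CPM in the LTP 3 hr replicates. It was higher at 3 hr (0.52, SE 0.144, adjusted p = 0.0861, edgeR), with replicate 3 highest as for Egr1. Gabra4, the alpha-4 subunit of the GABA-A receptor, was at 137, 133 and 132 CPM in 3 hr controls and 111, 115 and 106 CPM in LTP slices, a fall (log2 fold change -0.26, SE 0.0562, adjusted p = 0.0408). At 1 hr the log2 fold changes of Syn1 and Gabra4 were 0.05 and -0.04.

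**Figure D5:**
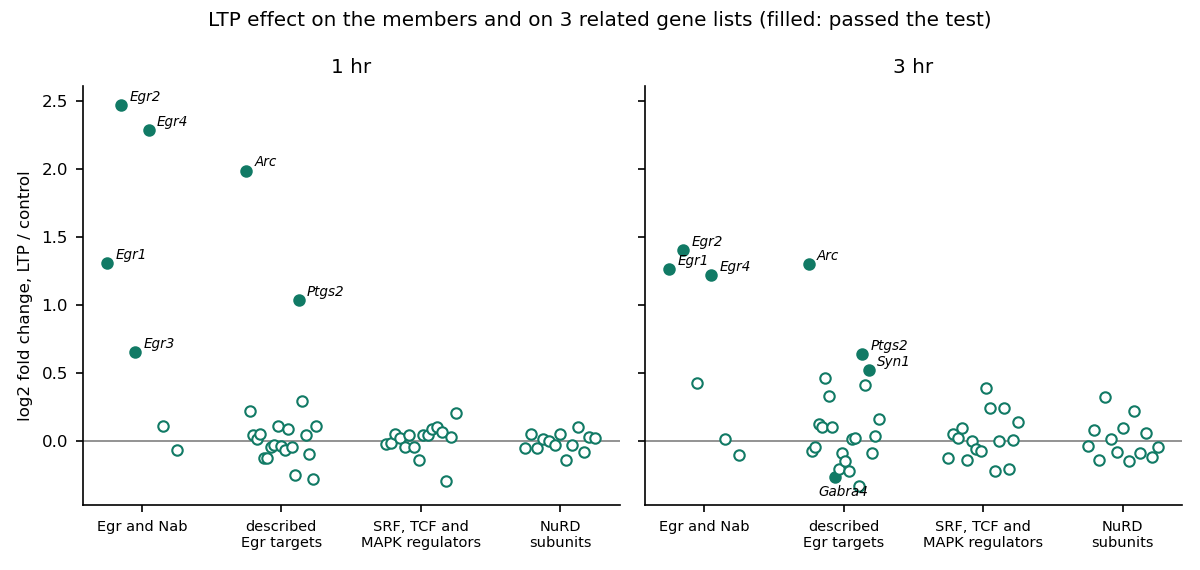
Log2 fold change of LTP over control (y axis) at 1 hr (left) and 3 hr (right) for the 6 Egr and Nab genes and for 3 related gene lists (x axis), 1 point per gene, filled and named where the gene passed the test. Apart from Arc, Ptgs2, Syn1 and Gabra4, the genes of the lists lie near 0 at both times.

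The genes whose level varied most like each member were found by Pearson's correlation of log2(CPM + 0.1) over the 12 libraries, among 14184 genes whose mean was 1 CPM or more. The libraries of a group share time, treatment and preparation, so these values describe a pattern across 4 groups. For Egr1 they were Fosb (0.976), Nr4a2 (0.968) and Nr4a1 (0.968), all transcription factors of the immediate early class. For Egr4 they were Gm13889 (0.978), Klf2 (0.976) and Ier2 (0.968), and for Egr3 Elmsan1 (0.947), Zyx (0.939) and Jun (0.931).

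For Egr2 they were 1700016P03Rik (0.989), Btg2 (0.987) and Errfi1 (0.980). 1700016P03Rik is a non-coding transcript, Btg2 encodes a regulator of cell growth and mRNA decay, and Errfi1 an inhibitor of EGF receptor signaling. For Nab1 the values were lower, with Enkur (0.928), Pld5 (0.921) and Acer3 (0.919). For Nab2 they were Psap (0.990), Tmem132a (0.989) and Gtpbp6 (0.989).

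Among the members themselves, the correlation over the 12 libraries was highest for Egr1 with Egr4 (0.882), Egr3 with Egr4 (0.856) and Egr1 with Egr3 (0.847). Egr2 with Egr3 gave 0.489, and Nab1 with Nab2 gave -0.747.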

How the data were processed

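Gene counts of 12 libraries in 4 groups of 3 were used. The deposited values are raw counts per gene that the authors made from paired-end stranded total RNA reads, depleted of ribosomal RNA, aligned with STAR to GRCm38/mm10 and counted with Bioconductor packages, with no stated strand setting. Of 41091 Ensembl IDs, 40217 matched GENCODE M21. Counts were tested with edgeR 4.0.16 (R 4.3.3): filterByExpr, TMM scaling, quasi-likelihood F test, Benjamini-Hochberg adjustment over all genes. Calls needed an adjusted p below 0.1 and more than a 1.2-fold difference, as in the study's methods, and the difference between the LTP effects had no fold minimum. Each time point was fitted alone (5 libraries at 1 hr, without control 1 hr replicate 2, and 6 at 3 hr), and comparisons across times in 1 model with 11 libraries. The procedure was tested on simulated data.

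CPM values are TMM-scaled. Ratios within an animal used a pseudocount of 0.1 CPM. The members, gene lists and marker lists were chosen with earlier results of these data known. Named were the 6 members, every called gene of the 3 related lists, and for each member the 3 genes most like it. Paired libraries came from the same animal per the labels, and the correlation of their deviations from the group means was -0.0149, -0.156 and 0.075 at 1 hr and 0.0385, -0.0275 and 0.218 at 3 hr. Replicates were not duplicates, with a chi-square per degree of freedom from 9.49 to 85.6. Alternatives were DESeq2 1.42.0, its size factors, total counts, other filters, all libraries, a replicate block, 1 model of the 4 groups, and leaving out each library. 1 marker each of the excitatory neuron and oligodendrocyte lists is not reported here, and the sums and counts of these lists were taken over the other 4 markers after the data were seen.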

Additional observations from a re-analysis of the deposited data

Results flagged for a closer look

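The LTP effect on Egr2 differed between the time points by a test of the difference itself, at -1.06 on the log2 scale (3 hr minus 1 hr, edgeR), adjusted p = 0.0794, with higher levels in LTP slices in 3 of 3 animals at both times. It was not called in 8 of 19 alternatives, each with 1 library left out, where the adjusted p reached 0.445. The LTP effect on Arc differed in the same direction, at -0.68, also with 3 of 3 animals higher at both times. Causes were not tested.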

How the results depend on the processing

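The direction and call of Egr1, Egr2 and Egr4 at 1 hr, of Egr2 at 3 hr, and of Egr4 and Nab2 between the 3 hr and 1 hr controls held under all alternatives run. Egr3 at 1 hr kept its direction but lost its call with all libraries (0.47 on the log2 scale), with a replicate block and control 1 hr replicate 2 (0.49) and in 1 model of the 4 groups (0.64), and ran from 0.53 to 0.79 with 1 library left out. Leaving out 1 library moved the 3 hr effects of Egr1 over 0.89 to 1.47, of Egr4 over 0.89 to 1.44, of Egr3 over 0.14 to 0.63 and of Nab1, never called, over -0.033 to 0.044, and that of Nab2 at 1 hr over -0.15 to 0.018. Members called then ran from 1 to 4 at 3 hr. All genes called were 140 at 1 hr, 347 with no filter beyond 1 count and 69 to 344 with 1 library left out, and 1155 at 3 hr, with 228 to 2170. The paired fit, with a replicate block and without control 1 hr replicate 2, called 206 and 1662 genes and changed no call of a member, but turned the uncalled difference of Nab1 between times to 0.0025.

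For the difference between the 3 hr and 1 hr LTP effects, 11 genes were called, 80 with DESeq2, 102 with no filter, 7 with the replicate block and control 1 hr replicate 2, and 1 to 67 with 1 library left out. Members called were 2 with no filter, where Egr4 passed at -1.07, and 0 to 2 with 1 library left out. The leave-out ranges were -1.24 to -0.96 for Egr2, -1.40 to -0.86 for Egr4, -0.42 to 0.15 for Egr1, -0.16 to 0.012 for Nab1 and -0.15 to 0.022 for Nab2. With all libraries Egr1 was at 0.017 and Nab2 at 0.036, and Nab2 at 0.034 with the replicate block too, all uncalled. Between controls, Egr3 passed with DESeq2 (0.45), total counts (0.47), no filter (0.45) or at least 10 counts in every library (0.46), and Egr1 with no filter (0.32), so 4 members were called there. Left-out ranges were 0.34 to 0.61 for Egr3 and 0.25 to 0.42 for Egr1, with 2 to 4 members called. Between LTP slices Egr1 passed with no filter (0.27), and the ranges were -0.10 to 0.46 for Egr1, -0.056 to 0.42 for Egr3 and -0.27 to -0.093 for Nab1, with 3 to 6 members called. The causes were not tested. With 2 or 3 libraries a group, precision is limited. The p-values rest on the spread between libraries of a group, in which animals, slices, preparation and counting error are not separated.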
